A study of Mus musculus with 5 samples.

Results

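Protein kinase A, the inhibitor and anchoring protein that control it, and the CREB transcription factors downstream were followed through 10 genes in ribosome-bound RNA of Drd2 neurons from the mouse central amygdala (CeA). The 10 genes were picked by name from the deposited table of 15093 genes, and each name occurred there once. They are Prkaca and Prkacb (catalytic subunits), Prkar1a, Prkar1b, Prkar2a and Prkar2b (regulatory subunits), Pkia (an inhibitor), Akap5 (an anchoring protein), and Creb1 and Crem (transcription factors). All 10 also passed the filter used for testing, a mean value of at least 1.

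All animals were adult Drd2-TRAP mice, a cross of the Drd2-Cre BAC line with a Rosa26 line that carries EGFP-tagged ribosomal protein L10a behind a floxed stop. The tag marks every cell that has once expressed the Cre, so the RNA comes from the cells that the Drd2 BAC drives within a punch and not from a sorted cell. Fear conditioned mice (tone paired with foot shock) gave 3 libraries, named replicates 2, 3 and 4, and control mice gave 2 libraries, replicates 6 and 7, each from punches pooled from 3 animals. The labels call the controls home cage animals and place collection 2 h after extinction. The study's results instead have controls exposed to the tone alone and collection after conditioning. Its methods name the control group HC, letters that they use for home cage in another experiment. The number of libraries limits precision, and no source states that the pools came from separate cohorts, so p-values measure the spread between these libraries.

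Protein kinase A is held inactive as a tetramer of regulatory and catalytic subunits. In textbook terms, Gs-coupled receptors such as the adenosine receptor encoded by Adora2a raise cyclic AMP, which binds the regulatory subunits and releases the catalytic ones, while the Gi-coupled D2 receptor lowers cyclic AMP. Free catalytic subunit phosphorylates synaptic proteins and, in the nucleus, CREB, which then drives genes that carry a cyclic AMP response element (CRE). Type II regulatory subunits, Prkar2b above all in striatal-type neurons, are tethered at membranes by A-kinase anchoring proteins such as AKAP5, and Pkia encodes a small peptide that blocks free catalytic subunit.

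The CRE itself, TGACGTCA, was looked for in the RefSeq promoter windows of the members (assembly GRCm38.p6, from 250 bases before to 50 bases after each annotated start). It reads the same on both strands. Windows were found for 8 of the 10 genes, 21 windows in all, and windows of 1 gene can overlap. Pkia and Crem had no window, so their promoters were not searched. A complete CRE was present in 2 of the 21 windows (9.52%, against 1.79% of all 32851 windows), both from Prkar1a and both holding the same site. The half-site TGACG, searched on both strands and contained in every complete CRE, was present in 7 of the 21 windows (33.3%, against 20.8% of all windows), from Prkaca, Prkacb, Prkar1a, Prkar1b and Prkar2a. The windows of Prkar2b, Akap5 and Creb1 did not hold these letters. The complete site is shown with the half-sites found for the catalytic genes, 2 for Prkaca and 1 for Prkacb, whose ratio is described further on, written 5′ to 3′ on the gene's strand with the CRE letters in capitals. The Prkar1a stretch is chr11:109650889-109650918 (plus strand), with the site starting 49 bases before an annotated start. The Prkaca stretches are chr8:83972846-83972875 and chr8:83972960-83972989 (plus strand), with half-sites 120 and 6 bases before the start, and the Prkacb stretch is chr3:146813031-146813060 (minus strand), with the half-site 102 bases before the start. The capitals are matches of letters, and binding was not measured.
Prkar1a: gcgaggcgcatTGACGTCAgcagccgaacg
Prkaca, far: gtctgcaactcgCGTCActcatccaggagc
Prkaca, near: gggctgcgggggCGTCAcggacagaggact
Prkacb: ggggcttgaccgCGTCActtccggcgcgcc

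The libraries held between 19605318 and 27937520 reads on genes, recovered from the deposited values, which lie close to CPM, read counts scaled to a fixed library size. A floor of 3 reads corresponds to at most 0.158 CPM and covers counting error only. The control libraries differed from each other more than the fear conditioned ones did, with 976 and 2681 of the listed genes at 0 in control replicates 6 and 7 against 159 to 349 in the fear conditioned libraries. On the log2(value + 1) scale the median gap between the 2 control libraries was 1.08 over the 13560 genes tested. The gap was smaller than this for 8 of the 10 members. The median range among the fear conditioned libraries was 0.443, and the range was smaller than this for only 4 members. The controls differed more than the fear conditioned libraries for 6 members. Control replicate 7 was below control replicate 6 for 9 of the 10 members, and fear conditioned replicate 2 was the lowest fear conditioned library for 8 of them. The shares of all genes with these orders were not computed, so neither count is read as a trait of the members. Markers of the labelled cells were present in each library, with Drd2 between 128 and 555 CPM and Adora2a between 105 and 775 CPM.

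Marker lists of other cell types moved with the groups. The summed level of 6 choroid plexus markers was between 58.0 and 110 CPM after fear conditioning, against 1009 and 1415 CPM in controls. Most of the control sums was Ttr (0.522, 22.1 and 0.348 CPM against 913 and 1319.6 CPM), while Clic6 overlapped between groups. The sum of 6 oligodendrocyte markers was between 1248 and 2640 CPM in the fear conditioned libraries against 2707 and 5183 CPM in the controls, and that of 6 astrocyte markers was between 571 and 651 CPM against 1315 and 1015 CPM. The sum of 6 glutamatergic neuron markers was between 47.8 and 200 CPM against 356 and 256 CPM. For these lists 3, 3, 4 and 3 genes, in the same order, had all fear conditioned libraries below both controls, a pattern found in 16.1% of all genes tested. Sums of 6 microglia markers (36.6 to 80.5 CPM against 92.2 and 77.0 CPM) and 6 endothelial markers (4.91 to 24.4 CPM against 18.7 and 55.9 CPM) overlapped between groups. The sum of 7 markers of Drd2 and GABA neurons, most of it Penk, was between 16431 and 18404 CPM against 7820 and 11108 CPM. Of these 7, Drd2, Adora2a, Penk and Gpr6 had all fear conditioned libraries above both controls (20.2% of all genes tested did), Gad2 had all of them below (435 to 481 CPM against 657 and 671 CPM), and Gad1 and Slc32a1 overlapped. The sum of 3 Drd1 neuron markers was between 165 and 342 CPM against 103 and 99.7 CPM. Drd1a (33.9, 42.8 and 83.5 CPM against 15.2 and 27.6 CPM) and Tac1 also had all fear conditioned libraries above both controls. Pdyn overlapped. The study, with its own software, reported Adora2a and Gpr6 as higher after fear conditioning and the choroid plexus markers Ttr and Kcnj13 as lower. No marker was at 0 in every library. PKA subunits are made by most cell types, and the part of these shifts in the members' values was not tested. In ribosome-bound RNA from pooled punches, fewer cells of a type and less RNA per cell cannot be told apart.

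Levels of the members were compared per kilobase of the deposited gene length. Prkar1a, the most abundant regulatory subunit, had 226 ± 40.9 CPM per kilobase (SD, n = 5 libraries) and stood above at least 97.4% of the listed genes in every library. Prkar1b followed with 145 ± 41.7, then Prkaca with 83.8 ± 14.7, Prkacb with 80.6 ± 17.0, Pkia with 76.5 ± 20.3 and Prkar2b with 55.3 ± 18.7 CPM per kilobase. Akap5 had 22.4 ± 4.09 and Prkar2a 13.2 ± 3.11 CPM per kilobase. The transcription factors were the lowest, Crem with 3.72 ± 2.59 and Creb1 with 3.07 ± 0.757 CPM per kilobase. The order Prkar1a, Prkar1b and Prkaca held in all 5 libraries, as did Prkar2b over Akap5, Akap5 over Prkar2a and Prkar2a over Crem. The neighbours Prkaca and Prkacb kept their order in only 3 libraries, Prkacb and Pkia in 4, Pkia and Prkar2b in 3, and Crem and Creb1 in 3.

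**Figure D1:**
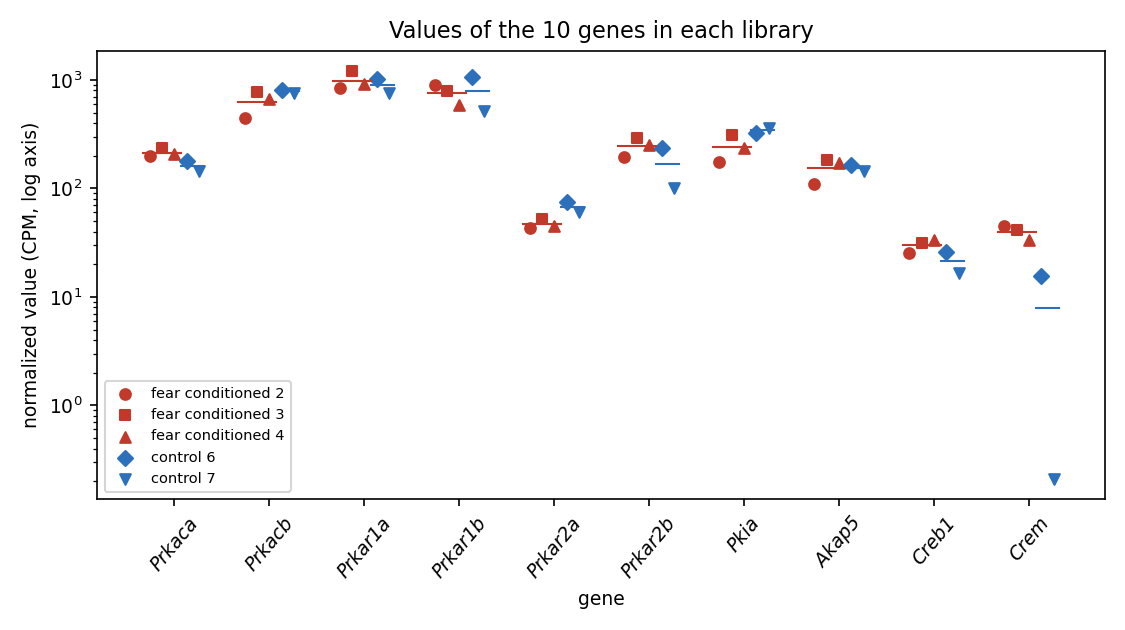
Normalized values in CPM (log axis, not divided by gene length) of the 10 genes in each library, fear conditioned in red and control in blue, with short lines at the group means (n = 3 and n = 2). Crem in control replicate 7 lies at 0.211 CPM, far under its other 4 values of 15.4 to 45.1 CPM. For the kinase subunits the ratio of the group means, fear conditioned over control, lies between 0.693 (Prkar2a) and 1.46 (Prkar2b).

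Between fear conditioned and control libraries the question was whether the machinery of cyclic AMP signalling differed 2 h after the session. None of the members passed the test, limma on log2(value + 1) with an adjusted p under 0.05 (Benjamini-Hochberg over all 13560 genes) and an absolute log2 fold change over 0.5. The same was true of all genes tested (0%), with a smallest adjusted p of 0.197 (limma). The study, with its own software, lists genes that passed its own cutoffs. At an unadjusted p under 0.05 there was 1 member of 10, Crem, where 16.8% of all genes tested were under that value. Of the members, 2 (Prkaca and Crem) had all fear conditioned libraries above both controls and 2 (Prkar2a and Pkia) had all of them below, and over all genes tested these shares were 20.2% and 16.1%. The median log2 fold change of the members, 0.08, was that of all genes tested, 0.08. On recovered reads DESeq2 called 0 of the 10 members and 7.96% of the 14507 genes with an adjusted p, and edgeR's quasi-likelihood test called 0 members and 0 genes (2404 genes had an unadjusted p under 0.05).

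**Figure D2:**
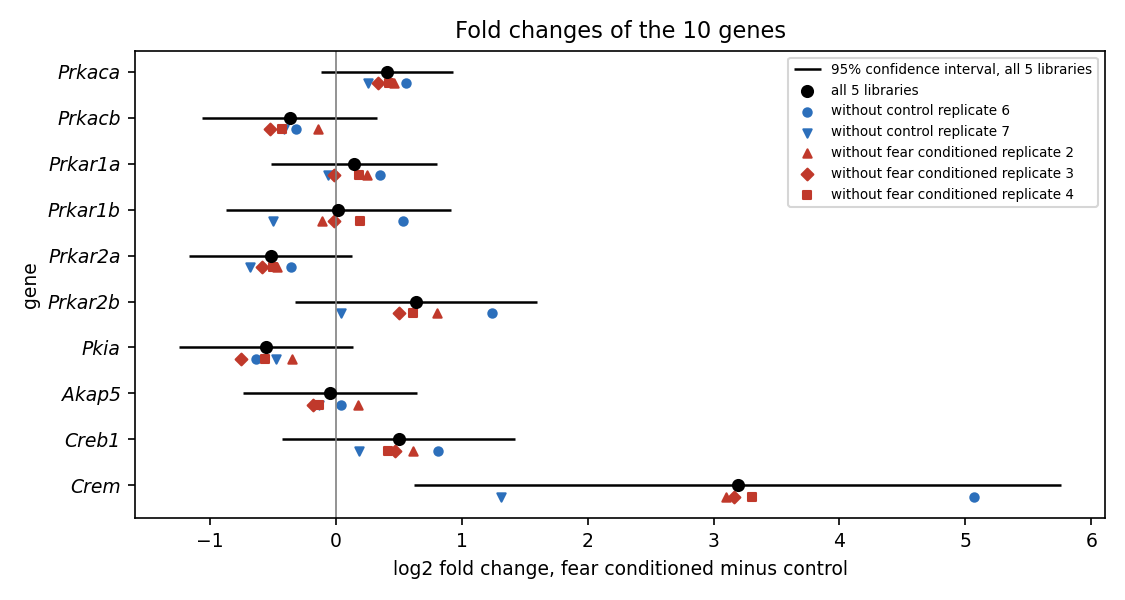
Log2 fold changes (fear conditioned minus control, on the log2(value + 1) scale) of the 10 genes from limma, with 95% confidence intervals as black lines and, under each, the estimates with 1 library left out, red for a fear conditioned and blue for a control library. The interval includes 0 for 9 genes, and the estimate of Crem runs from 1.31 without control replicate 7 to 5.07 without control replicate 6.

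The estimates for the catalytic subunits had opposite signs, and neither passed the test. Prkaca (ENSMUSG00000005469), the Cα subunit, had 198, 235 and 209 CPM after fear conditioning, against 179 and 145 CPM in controls. Every fear conditioned library was above both controls, by a narrow margin, and the log2 fold change was 0.41 (standard error 0.22, limma adjusted p = 0.390), or 0.25 without control replicate 7. Prkacb (ENSMUSG00000005034), the Cβ subunit, had 449, 765 and 669 CPM after fear conditioning, against 814 and 762 CPM in controls. The groups overlapped, with fear conditioned replicate 2 the lowest, and the log2 fold change was -0.36 (standard error 0.29, limma adjusted p = 0.542), or -0.14 without fear conditioned replicate 2. How reads matching both genes were assigned is not given in the sources used here.

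Because a ratio of 2 genes within a library does not depend on how libraries were scaled, the subunits were also compared as ratios, 5 in all, with an exact permutation test that takes all 10 ways to divide 5 libraries into 3 and 2. The smallest p this design allows is 0.1, so no ratio can pass 0.05. Per kilobase, Prkaca over Prkacb was 1.64, 1.14 and 1.16 after fear conditioning, against 0.818 and 0.706 in controls. On that scale Prkaca was the larger of the pair in every fear conditioned library and the smaller in both controls. Without division by gene length the ratio was 0.441, 0.307 and 0.312 against 0.220 and 0.190, so Prkacb was then the larger in every library. The mean log2 ratio per kilobase was 0.38 ± 0.29 (SD, n = 3) against -0.40 ± 0.15 (SD, n = 2). The difference was 0.77 with or without division by gene length (exact permutation test, two-sided, p = 0.1, adjusted p = 0.167 over the 5 ratios). When any 1 library was left out, the difference stayed between 0.60 and 0.88. Expressed as a share of catalytic transcript per kilobase, Prkaca took between 53.4% and 62.1% after fear conditioning, against 45.0% and 41.4% in controls.

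The regulatory subunits of type I, Prkar1a and Prkar1b, did not separate the groups. Prkar1a (ENSMUSG00000020612), the RIα subunit found in most tissues, had 837, 1204 and 915 CPM after fear conditioning, against 1016 and 764 CPM in controls, which overlap (log2 fold change 0.14, standard error 0.27, and -0.062 without control replicate 7). Prkar1b (ENSMUSG00000025855), the RIβ subunit typical of neurons, had 901, 789 and 593 CPM against 1057 and 516 CPM. The control libraries of Prkar1b lay outside the fear conditioned range on either side (log2 fold change 0.02, standard error 0.37), and the sign of this estimate was negative with quantile normalization, array weights, edgeR and DESeq2, and without control replicate 6 or 7 it was 0.54 or -0.50.

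The type II subunits had estimates of opposite sign. Prkar2a (ENSMUSG00000032601), the RIIα subunit, was the only regulatory gene whose groups did not overlap, with 43.5, 51.8 and 45.4 CPM after fear conditioning, against 75.4 and 60.1 CPM in controls. Its log2 fold change was -0.52 (standard error 0.27, limma adjusted p = 0.381), and between -0.68 and -0.35 with each library left out. Prkar2b (ENSMUSG00000002997), the RIIβ subunit, had 193, 294 and 251 CPM after fear conditioning, against 235 and 102 CPM in controls. Control replicate 6 lay inside the fear conditioned range and control replicate 7 below it, and the log2 fold change of 0.64 (standard error 0.40, limma adjusted p = 0.446) became 1.24 without control replicate 6 and 0.04 without control replicate 7.

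**Figure D3:**
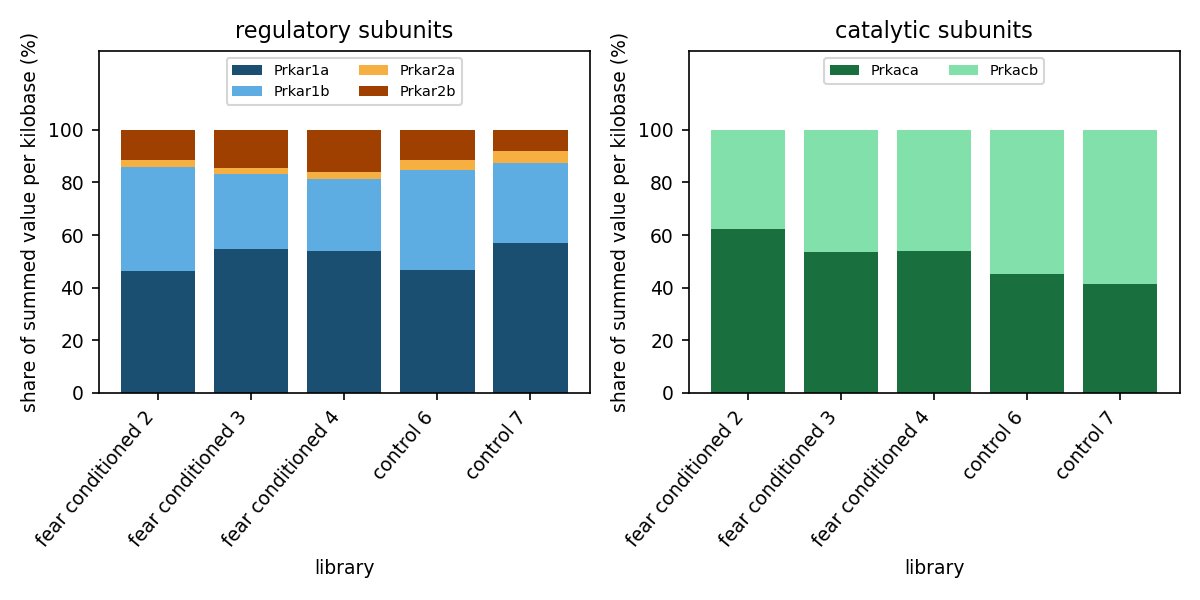
Shares in percent of the summed value per kilobase taken by each regulatory subunit (left) and each catalytic subunit (right) in the 5 libraries. Prkar1a takes the largest regulatory share in every library (46.5% to 57.0%), and Prkaca takes 53.4% or more of catalytic transcript in the fear conditioned libraries and 45.0% or less in the controls.

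Among regulatory transcripts per kilobase, Prkar1a made up 51.8 ± 4.87% and Prkar1b 32.8 ± 5.66% (SD, n = 5 libraries), so that type I subunits dominated, with Prkar2b at 12.4 ± 2.98% and Prkar2a at 3.09 ± 0.902%. The share of Prkar2b was 11.6%, 14.4% and 15.9% after fear conditioning, against 11.7% and 8.19% in controls, which overlap, with a log2 difference of 0.57 for Prkar2b against the other 3 (exact permutation test, two-sided, p = 0.3, adjusted p = 0.375 over the 5 ratios). That difference was 0.85 without control replicate 6 and 0.29 without control replicate 7. Regulatory over catalytic transcript was 3.11, 2.74 and 2.40 against 3.02 and 2.11 per kilobase. That ratio overlapped between groups, with a difference of 0.12 in log2 (exact permutation test, two-sided, p = 0.6, adjusted p = 0.600 over the 5 ratios) that turned to -0.14 without control replicate 7.

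Pkia (ENSMUSG00000027499), which encodes the inhibitor peptide PKIα, had 175, 308 and 237 CPM after fear conditioning, against 325 and 362 CPM in controls. Both controls were above every fear conditioned library, the nearest pair being 308 and 325 CPM, and the log2 fold change was -0.55 (standard error 0.28, limma adjusted p = 0.379), or -0.34 without fear conditioned replicate 2. Relative to summed catalytic transcript per kilobase, Pkia stood at 0.344, 0.437 and 0.383 after fear conditioning, against 0.512 and 0.649 in controls. That difference was -0.58 in log2 (exact permutation test, two-sided, p = 0.1, adjusted p = 0.167 over the 5 ratios), between -0.75 and -0.41 with each library left out. Without division by gene length the difference was -0.36.

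Akap5 (ENSMUSG00000021057), the scaffold that holds the kinase at postsynaptic membranes, had 110, 183 and 170 CPM after fear conditioning, against 165 and 146 CPM in controls. The controls lay within the fear conditioned range, with a log2 fold change of -0.04 (standard error 0.28) and a 95% confidence interval from -0.73 to 0.65. Without fear conditioned replicate 2 the estimate was 0.18.

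Creb1 (ENSMUSG00000025958), the CREB transcription factor itself, had 25.5, 31.1 and 33.5 CPM after fear conditioning, against 26.1 and 16.5 CPM in controls. The groups overlapped at control replicate 6, with a log2 fold change of 0.50 (standard error 0.38, limma adjusted p = 0.527) that was 0.82 without control replicate 6 and 0.19 without control replicate 7. Activation of CREB is by phosphorylation of the protein, which this assay does not read.

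Crem (ENSMUSG00000063889) encodes the cyclic AMP response element modulator, a CREB relative with activating and repressing isoforms that include the inducible repressor ICER. It had 45.1, 41.4 and 33.6 CPM after fear conditioning (40.0 ± 5.90, SD, n = 3) and 15.4 and 0.211 CPM in controls (7.82 ± 10.8, SD, n = 2). In recovered reads these were 952, 993 and 676 against 462 and 4. Every fear conditioned library was above both controls, and the ratio of the group means was 5.12. The log2 fold change was 3.19 (standard error 1.06, 95% confidence interval 0.63 to 5.76), with an unadjusted p of 0.0224 and an adjusted p of 0.237 from limma, and an exact permutation p of 0.1. The control libraries of Crem differed by 73.1 times, and on the log2(value + 1) scale their gap of 3.76 compares with a range of 0.42 among the fear conditioned libraries. In control replicate 7, 16.3% of all genes tested had 4 reads or fewer, against 4.28% in control replicate 6 and at most 1.36% in a fear conditioned library. The value of a whole gene does not separate the isoforms of Crem.

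Leaving out 1 control library changed calls among the members, in fits that took the lone control to vary like the fear conditioned libraries. Without control replicate 6, limma called 3 members (Crem, Prkar2b and Creb1), all higher after fear conditioning, among 60.5% of all genes tested. Without control replicate 7 it called Crem only, at a log2 fold change of 1.31 (adjusted p = 0.0130), among 27.5% of all genes tested. Without control replicate 6 the log2 fold change of Crem was 5.07. On recovered reads the log2 fold change of Crem was 2.36 with DESeq2 (adjusted p = 0.241) and 2.40 with edgeR (adjusted p = 0.471).

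Crem over Creb1 per kilobase was 2.10, 1.58 and 1.19 after fear conditioning, against 0.700 and 0.0151 in controls. Crem was thus the larger in the former and the smaller in the latter. The log2 difference was 3.94 (exact permutation test, two-sided, p = 0.1, adjusted p = 0.167 over the 5 ratios), and it was 1.17 without control replicate 7 and 6.70 without control replicate 6.

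By the size of their deviations over the 5 libraries, the gene most like each member was found among the 13559 other genes tested, as the root mean square difference of log2(value + 1) after centring on the gene's own mean. For 9 members the nearest gene lay within 0.0652 (Xpo5 for Prkar2a), the closest being Phtf1 to Prkar1a at 0.0305. Dtnb was nearest to Prkaca, Naa25 to Prkacb, Coro1a to Prkar1b, Rps6kb1 to Prkar2b, Tbc1d14 to Pkia, Reps2 to Akap5 and Ddhd1 to Creb1. Crem had no neighbour as close, with Clint1 nearest at 0.118 and values of 70.8, 72.5 and 64.7 CPM against 31.1 and 1.05 CPM. These likenesses rest on 5 libraries that share depth and scaling.

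Other genes of the pathway were taken from 8 lists of 60 genes, of which 56 were in the table and tested. None passed the test in either direction (adjusted p from 0.197 to 0.990, limma). An unadjusted p under 0.05 was found for 10 genes, where 16.8% of all genes tested were under that value. All fear conditioned libraries were above both controls in 10 genes and below both in 12. These counts above and below are 17.9% and 21.4% of the 56 genes, beside the 20.2% and 16.1% of all genes tested.

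**Figure D4:**
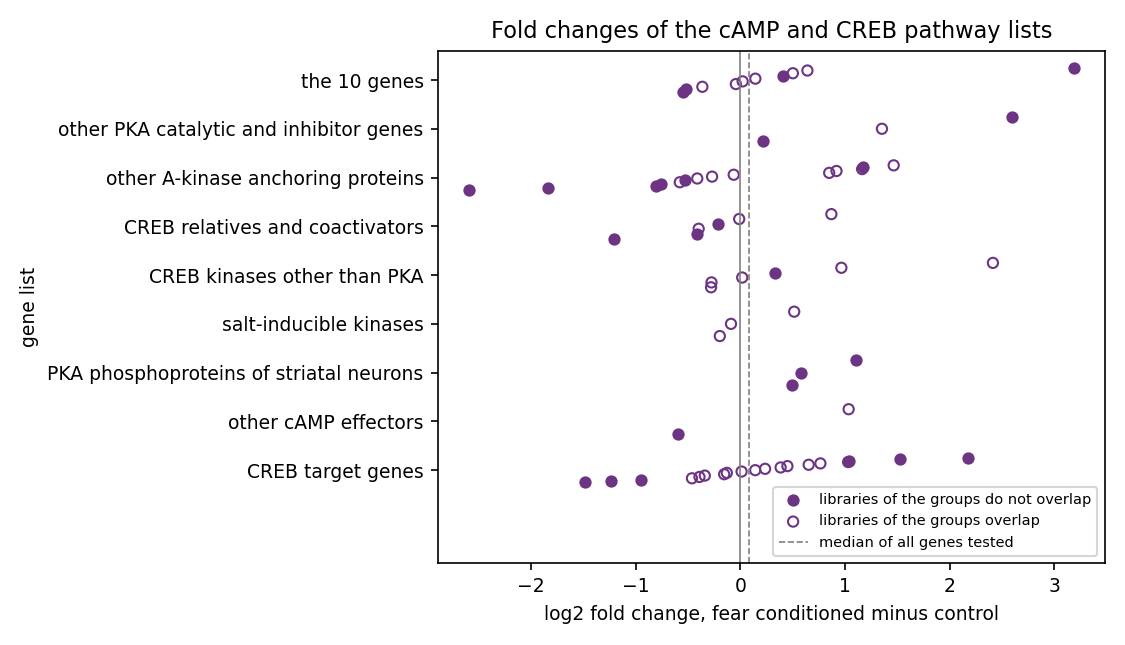
Log2 fold changes (fear conditioned minus control) of the 10 genes and the 8 pathway lists, with filled points where the libraries of the groups do not overlap and a dashed line at the median of all genes tested, 0.08. All 3 PKA phosphoproteins of striatal neurons are filled and right of the dashed line, whereas anchoring proteins lie on both sides.

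Among the further kinase and inhibitor genes, Prkx, a catalytic subunit relative, had 3.13, 9.20 and 9.83 CPM after fear conditioning, against 0.401 and 0.158 CPM in controls. Its groups did not overlap, with 12 and 3 reads in the controls, and its log2 fold change was 2.60 (standard error 0.66, limma adjusted p = 0.200). Pkig, another inhibitor gene and the highest of this list, had 239, 200.2 and 180.1 CPM against 179 and 173 CPM, groups that touched without overlapping.

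Anchoring proteins other than Akap5 had a median log2 fold change of -0.34 over 14 genes tested, of which 5 had all fear conditioned libraries below both controls and 1 had them above (16.1% and 20.2% of all genes tested). Map2, the dendritic microtubule protein that anchors type II kinase and the highest of the list, had 206, 288 and 272 CPM after fear conditioning, against 576 and 338 CPM in controls. Akap13, another anchoring protein, had 10.4, 5.41 and 4.97 CPM against 27.2 and 73.5 CPM (log2 fold change -2.60, standard error 0.61, limma adjusted p = 0.197). Myrip, with 17.7, 11.6 and 14.1 CPM against 15.6 and 0.844 CPM, had only control replicate 7 apart from the rest.

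The CREB relatives and coactivators had 0 of 6 genes above and 3 of 6 below both controls in all fear conditioned libraries (20.2% and 16.1% of all genes tested). Crtc1, a coactivator that moves to the nucleus when dephosphorylated, had 135, 157 and 143 CPM against 170.0 and 167 CPM (log2 fold change -0.22). Crtc3 had 5.31, 3.21 and 4.92 CPM against 15.0 and 8.75 CPM (log2 fold change -1.21), and Atf1 had 4.84, 9.25 and 9.53 CPM against 5.14 and 2.58 CPM, which overlap. None of these differences passed the test.

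Of 6 other kinases that phosphorylate CREB, 1 had all fear conditioned libraries above both controls and 0 had them below. That gene was Rps6ka4, with 86.3, 109 and 104 CPM against 74.3 and 83.4 CPM. Of 3 salt-inducible kinases, which hold the coactivators of CREB in the cytoplasm, 0 were above and 0 below. Over all genes tested these shares were 20.2% and 16.1%. Camk4 had 192, 483 and 378 CPM against 239 and 436 CPM, and Rps6ka3 had 23.1, 24.5 and 28.6 CPM against 22.8 and 41.9 CPM. Rps6ka5 (16.6, 41.5 and 32.4 CPM against 29.2 CPM) and Sik2 (3.51, 4.29 and 4.22 CPM against 11.2 CPM) were both listed at 0 in control replicate 7. Sik3, the highest of its list, had 123, 149 and 134 CPM against 102 and 234 CPM.

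All 3 phosphoproteins that are PKA substrates in striatal neurons had every fear conditioned library above both controls. Ppp1r1b, which encodes the phosphatase inhibitor DARPP-32, had 3283, 3505 and 3583 CPM against 1076 and 2411 CPM (log2 fold change 1.10, standard error 0.39, limma adjusted p = 0.255). Arpp21 had 3398, 4134 and 4223 CPM against 2351 and 2900.2 CPM (log2 fold change 0.58). This pattern was found in 20.2% of all genes tested, and none of the 3 passed the test. Drd2, Adora2a, Penk and Gpr6 also lay above both controls in every fear conditioned library, as did the Drd1 neuron markers Drd1a and Tac1. Gad2 lay below both controls, and Gad1, Slc32a1 and Pdyn overlapped between groups. The part of these marker shifts in the values of the phosphoproteins was not tested.

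Of the cyclic AMP effectors outside PKA, Rapgef4, an exchange factor for Rap1, had 160, 181 and 183 CPM against 371 and 187 CPM, and Rapgef3 had 10.2, 6.16 and 6.85 CPM against 9.42 and 0.686 CPM. Known CREB target genes had 3 of 19 above and 3 of 19 below both controls in all fear conditioned libraries (20.2% and 16.1% of all genes tested), with a median log2 fold change of 0.14. Penk, the enkephalin precursor and a marker of these neurons, had 16076, 13565 and 14950.0 CPM against 6098 and 8606 CPM (log2 fold change 1.03). Nr4a2, an orphan nuclear receptor induced early by activity, had 11.7, 40.9 and 4.97 CPM against 1.67 and 2.95 CPM. Its spread among fear conditioned libraries was wider than its gap to the controls. Bdnf, a neurotrophin gene, had 11.9, 8.83 and 1.99 CPM against 12.9 and 28.7 CPM (log2 fold change -1.49), and none of these genes passed the test.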

How the data were processed

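RNA bound to tagged ribosomes was sequenced from 3 fear conditioned and 2 control pools. The authors deposited 1 table of gene values for the 5 libraries. Its unit is a normalized signal, per the labels made with DESeq on build mm8. The study's methods name Tuxedo and DESeq software without versions or settings, and strand use and treatment of reads that match several genes are not given in the sources used here. Each column was a whole multiple of its smallest value (100% of values, tolerance 0.01), which gave back whole reads (19605318 to 27937520 per library). Among the tests, these reads were used for edgeR and DESeq2 only, because the deposited values are not counts. The reads also gave the library depths, the floor and the read numbers of single genes.

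Values were tested as log2(value + 1) with limma 3.58.1 (moderated test with trend, R 4.3.3) for genes with a mean of at least 1, with Benjamini-Hochberg adjustment over all of them. The test had been planned with either unit in mind. The pseudocount makes fold changes of low genes too small. Alternatives were a pseudocount of 0.1, other filters, quantile normalization, array weights, edgeR 4.0.16, DESeq2 1.42.0, and leaving out each library. Ratios per gene length used an exact permutation test. The limma, edgeR and DESeq2 fits were tested on simulated counts with large known changes and the same dispersion for every gene. That simulation had no gap between libraries like that of the controls. It did not cover the ratios or the promoter search.

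The 10 members and the gene lists were chosen with earlier results of these data known. Pathway genes were named by a rule, the highest gene of each list and its largest positive and negative differences. Promoter windows are from RefSeq.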

Additional observations from a re-analysis of the deposited data

How the results depend on the processing

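Of 119 values of the members under the alternatives, 103 kept their direction and side of the threshold, 12 turned in direction and 4 passed the threshold. For Prkar1b the log2 fold change of 0.02 became -0.00998 with quantile normalization, -0.13 with array weights, -0.029 with edgeR and -0.064 with DESeq2, and ranged from -0.50 to 0.54 with 1 library left out. For Akap5 it was 0.045 with array weights, and from -0.18 to 0.18 with 1 library left out. For Prkar1a the range was -0.062 to 0.35, and for the regulatory to catalytic ratio -0.14 to 0.37. Genes called over the whole table numbered 0 with limma, 1155 with DESeq2, and between 0 and 8025 with 1 library left out, where members called numbered between 0 and 3. The median of all genes, 0.08 in the main fit, was -0.04 with edgeR and -0.11 with DESeq2. With 1 control left, its spread was assumed to be that of the other libraries. Crem had no value under the filter of at least 1 in every library. No paired analysis was possible because the groups share no replicate numbers. The 2 control libraries limit every comparison.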

Other observations

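Outside the naming rule, and chosen after their values were seen, further anchoring proteins stood apart between groups without passing the test. Sphkap, which binds type I regulatory subunits, had 31.4, 42.1 and 26.4 CPM after fear conditioning, against 122 and 117 CPM in controls (log2 fold change -1.84, standard error 0.30, limma adjusted p = 0.197). Akap11 had 92.8, 114 and 134 CPM against 177 and 205 CPM (log2 fold change -0.76). Gskip, an anchoring protein that also binds GSK3, had 157, 169 and 158 CPM against 91.6 and 55.5 CPM (log2 fold change 1.17, standard error 0.28, limma adjusted p = 0.197). The inhibitor gene Pkib had 15.6, 6.87 and 8.84 CPM against 17.1 CPM and was listed at 0 in control replicate 7.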
